A study of Mus musculus with 6 samples.

Results

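The HSP70 and HSP110 chaperones were read by 15 of the 55681 non-control probes on the array. They were the probes whose systematic name in the spot files was a RefSeq accession of 1 of 10 listed genes: Hspa1a, Hspa1b, Hspa1l, Hspa2, Hspa4, Hspa4l, Hspa8, Hspa9, Hspa13 and Hsph1. A probe was found for 9 of these genes. Hspa1b was matched by no probe and was not analysed here. The inducible members were Hspa1a with 1 probe and Hsph1 with 2 probes. The constitutive members held 10 probes, of which Hspa8 and Hspa4 had 3 each, Hspa13 had 2, and Hspa4l and Hspa9 had 1 each. Hspa1l and Hspa2, which are best known for their high expression in testis, had 1 probe each and were kept apart from both classes. All 15 probes were well above background on all 6 arrays, none was saturated or marked as an outlier, and each was 1 spot per array.

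HSP70 proteins hold short hydrophobic stretches of unfolded or newly made proteins and release them in a cycle driven by ATP. J-domain proteins speed the hydrolysis of ATP, and nucleotide exchange factors, which include the larger HSP110 proteins, open the chaperone again. Some members are made in every cell at all times, whereas others are switched on when damaged proteins accumulate and the heat shock factor Hsf1 binds heat shock elements in their promoters. Most of the members described here act in the cytosol and nucleus. Hspa9 works in mitochondria and Hspa13 is tied to microsomes, while the secreted hormones of the pituitary fold in the endoplasmic reticulum with another HSP70, Hspa5.

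RNA came from whole pituitaries of virgin female mice, 8 weeks old and of C57BL6 background. The 3 WT animals were Jmjd2a+/+ and the 3 KO animals were Jmjd2a-/- littermates; Jmjd2a, now Kdm4a, encodes a demethylase of histone H3 lysines. Every animal, WT and KO alike, had been exposed to soiled bedding of a stud male to start oestrus and was killed 24 h later. The sources used here do not give the deleted part of the gene or whether it was lost in all tissues. The comparison of KO with WT asks which transcripts differ in the pituitary when Jmjd2a is lost.

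Each array carried Cy3-labelled RNA of 1 animal, and all 6 lay on 1 slide read in 1 scan. The 75th percentile of the spot signal, subtracted from each array as log2, ran from 171 to 313 intensity units, and 34634 to 40567 probes were well above background. WT arrays correlated with each other at 0.982 to 0.985 across probes, KO arrays at 0.992, and a KO with a WT array at 0.982 to 0.987, where probes are not independent replicates. The brighter Kdm4a probe was lower in KO by limma, with a log2 fold change of -0.62 ± 0.14 (SE, n = 3 per group, adjusted p = 0.262), and its groups did not overlap. Since the deleted part is not given, it is not known whether this probe lies inside it. Its second probe was well above background on only 1 array of each group and was not tested. Of 16 lists of pituitary and other cell type markers, summed levels of 14 overlapped between the groups. The sums are linear, so the brightest genes weigh most. Single genes of these 14 lists still had an unadjusted p under 0.05 by limma, though none was called. Lower in KO were Avp (log2 fold change -1.21), Col1a1 (-0.83), Avpr1b (-0.58), Dio2 (-0.54), Crhr1 (-0.52), Dcn (-0.52) and Ghrhr (-0.4). Higher in KO were Rax (0.53) and Drd2 (0.31). The list of pituitary lineage factors was summed to 75.9 to 83.2 in WT and 85.9 to 97.8 in KO (multiples of the 75th percentile), with all 5 of its genes above background on all arrays. The neutrophil list was summed to 1.94 to 14.2 in WT and 1.21 to 1.73 in KO, with 3 of its 5 genes above background on all arrays, the other 2 on some, and 0 at an unadjusted p under 0.05. The part of these lists in the results below was not tested.

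Promoter sequences are shown for both inducible genes that had a probe and for 2 other members of their families, because heat shock elements, the sites bound by Hsf1, lie in promoters. They are RefSeq sequences of build GRCm38.p6, read 5′ to 3′ on the strand of the gene, each with 250 bases before the start and 30 bases from the start on. Capitals mark matches to the two-unit heat shock element (GAANNTTC or TTCNNGAA, each of which reads the same on both strands) and to its three-unit form, in which both two-unit forms overlap on their shared middle unit. The first 2 belong to the inducible members, at chr17:34972127-34972406 and chr5:149636286-149636565, both on the minus strand. The other 2 belong to Hspa1l, at chr17:34972453-34972732 on the plus strand, and to Hspa4, at chr11:53300450-53300729 on the minus strand.
Hspa1a: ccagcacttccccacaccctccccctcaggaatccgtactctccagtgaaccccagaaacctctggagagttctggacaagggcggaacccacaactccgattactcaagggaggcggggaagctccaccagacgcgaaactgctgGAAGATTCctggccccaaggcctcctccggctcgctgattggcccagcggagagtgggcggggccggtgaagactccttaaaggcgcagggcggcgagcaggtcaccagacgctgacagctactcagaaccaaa
Hsph1: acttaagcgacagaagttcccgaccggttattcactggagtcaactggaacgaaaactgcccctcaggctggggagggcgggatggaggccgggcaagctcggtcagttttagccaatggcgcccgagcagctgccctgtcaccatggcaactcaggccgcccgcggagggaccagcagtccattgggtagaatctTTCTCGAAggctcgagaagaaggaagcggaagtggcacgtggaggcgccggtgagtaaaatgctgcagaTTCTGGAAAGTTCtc
Hspa1l: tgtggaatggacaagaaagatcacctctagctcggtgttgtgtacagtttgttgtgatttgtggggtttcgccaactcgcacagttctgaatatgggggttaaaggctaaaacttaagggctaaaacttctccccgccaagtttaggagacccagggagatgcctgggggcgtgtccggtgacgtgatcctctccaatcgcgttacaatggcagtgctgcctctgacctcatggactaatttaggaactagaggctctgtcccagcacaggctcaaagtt
Hspa4: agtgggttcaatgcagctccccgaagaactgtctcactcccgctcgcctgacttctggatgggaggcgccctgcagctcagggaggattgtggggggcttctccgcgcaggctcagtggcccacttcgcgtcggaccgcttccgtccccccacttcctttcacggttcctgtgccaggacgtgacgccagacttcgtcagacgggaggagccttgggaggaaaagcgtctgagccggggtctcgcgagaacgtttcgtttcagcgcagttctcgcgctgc
Promoters were at hand for 7 of the 10 members, but not for the constitutive Hspa8, Hspa9 and Hspa13. In all 8 were searched, because Hsph1 has a second start close to the first. Over the whole window, which runs on to 50 bases from the start, Hspa1a held 1 two-unit match, beginning 104 bases before the start. Hsph1 held 3 two-unit matches, the first beginning 54 bases before the start and the other 2 joined in 1 three-unit match at bases 15 to 27 after it. Hspa1b held the same match as Hspa1a, and their printed windows were the same at 276 of 280 bases. Hspa1l, Hspa2, Hspa4 and Hspa4l held none. Of 32851 RefSeq promoters of the same length, 15.1% held a two-unit match and 0.603% a three-unit match. A CCAAT box began 67 bases before the start of Hspa1a and of Hspa1b, 57 before that of Hspa1l and 29 before that of Hspa2. Hsph1 held 2, and Hspa4 and Hspa4l held none. Of all promoters, 37.4% held a CCAAT on either strand. TATAAA, present in 13.6% of all promoters, was found in no member's window. The Hspa1a and Hspa1l starts lie 547 bases apart and face away from each other. These matches describe letters and not binding.

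Hspa1a, the stress-inducible HSP70 of the cytosol, was higher in every KO pituitary, and so was Hsph1, the inducible HSP110 that opens HSP70 and holds unfolded proteins, on both of its probes. In the reported setting Hspa1a differed more than Hsph1, an order that turned under normexp correction (1.12 against 1.49 and 1.41, log2) and in the authors' deposited value table (1.18 against 1.5 and 1.38). In limma's fit over all probes none of the 3 passed an adjusted p of 0.05. The constitutive members differed little. Hspa8, the main cytosolic HSP70 of unstressed cells, gave probes on both sides of 0, with only the brightest below it. In RNA of a whole gland, a different number of cells of a type and a different amount of RNA per cell cannot be told apart.

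The Hspa1a probe read -2.96, -2.41 and -2.70 in WT replicates 1 to 3, as log2 signal relative to the array's 75th percentile. In KO replicates 1 to 3 it read -0.73, -0.86 and -0.16. The groups did not overlap, and the lowest KO array stood clearly above the highest WT array, which was WT replicate 2. The log2 fold change (KO over WT throughout) was 2.11 ± 0.23 (SE, n = 3 per group), a 4.31-fold difference with a 95% interval of 2.95 to 6.29, and its adjusted p by limma was 0.144. Hspa1a ranked ninth by p among 36739 probes tested. The probe was dim: its processed signal was 22.1, 58.8 and 29.7 intensity units in WT and 150, 129 and 272 in KO, and the spot's median brightness in WT was 58 to 105 over a local background of 28 to 30. The log2 fold change was 1.12 with normexp correction and 1.18 in the authors' deposited value table refitted with limma, for reasons that were not tested, and Hspa1a was called in both (adjusted p = 0.0137 and 0.0408). Hspa1a and Hspa1b are near-identical neighbours, so it is uncertain which of them the probe reads.

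The first Hsph1 probe (A_55_P2176963) read 2.70, 3.12 and 2.79 in WT and 4.31, 4.20 and 4.51 in KO, in the same log2 units. The second (A_55_P2003513) read 1.47, 1.82 and 1.55 in WT and 3.04, 2.92 and 3.28 in KO. On both, all 3 KO arrays lay above all 3 WT arrays, and WT replicate 2 and KO replicate 3 were the highest of their groups. The log2 fold change was 1.47 ± 0.16 on the first probe and 1.47 ± 0.16 on the second (SE, n = 3 per group), or 2.77-fold (95% interval 2.12 to 3.62) and 2.76-fold (2.12 to 3.59), each with an adjusted p of 0.144 by limma. The processed signal was at least 475 units on every array, far from the background, and the log2 fold changes kept within 1.36 to 1.66 over the other settings tried, 19 for the first probe and 18 for the second.

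**Figure D1:**
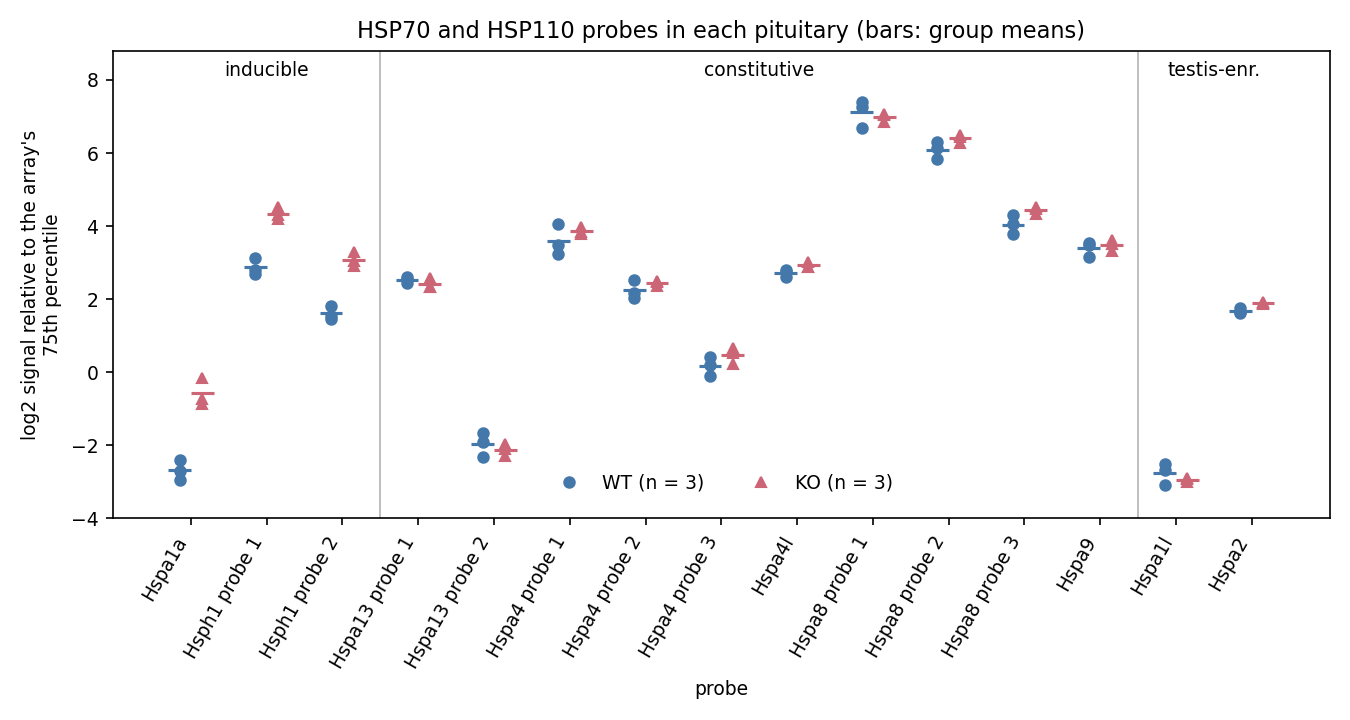
Log2 signal relative to the 75th percentile of each array (y axis) for the 15 HSP70 and HSP110 probes (x axis), with WT arrays as circles, KO arrays as triangles, n = 3 each, and bars at group means. The KO triangles of Hspa1a and of both Hsph1 probes lie above all WT circles, while the groups lie close together at the other probes; heights of different probes are not comparable.

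The 3 inducible probes also ranked the arrays alike within each group. Over the 6 arrays, the 2 Hsph1 probes correlated at a Pearson r of 0.999 with each other, and Hspa1a correlated with them at 0.997 and 0.995. These values, which include the difference between the groups, are a description. Within WT the order was replicate 2, then 3, then 1 on each of the 3 probes, and within KO it was replicate 3, then 1, then 2. The 75th percentiles of the arrays had the same order. They were 171, 313 and 193 units in WT replicates 1 to 3 and 248, 234 and 305 in KO. The shared order may thus follow the brightness of the arrays, which was not tested. WT replicate 2 and KO replicate 2 lay in the second row of the slide and formed its only pair, in which Hspa1a was higher in KO by 1.55 and Hsph1 by 1.08 and 1.1 (log2, no test).

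Among the 6267 genes with a symbol and an SD of at least 0.25 over the arrays, the 5 whose log2 values tracked Hspa1a most closely were Ccdc6, Dnaja1, Coq5, Maneal and Ago4, at Pearson r of 0.993 to 0.999 over 6 arrays. For Hsph1 they were Gmcl1, Upf3b, Dnaja1, Ago4 and Maneal, at 0.991 to 0.997. These r values include the difference between the groups and are the highest of 6267. They are a description and do not show a likeness within the groups. Dnaja1, a J-domain partner of HSP70, Ago4 and Maneal were among the 5 for both, which themselves correlate closely. Their log2 fold changes ran from 0.52 ± 0.12 for Gmcl1 to 1.20 ± 0.14 for Dnaja1 (SE, n = 3 per group), and none was called by limma (adjusted p = 0.264 and 0.151 for these 2).

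Hspa8, the constitutive HSP70 of the cytosol that also strips clathrin from vesicles, was read by 3 probes. The brightest (A_55_P2080603) read 7.39, 6.68 and 7.26 in WT and 7.03, 7.08 and 6.86 in KO. Its groups overlapped, with WT replicate 2 below every other array and the other WT arrays above every KO array, and the log2 fold change was -0.12 ± 0.21 (adjusted p = 0.806 by limma, 95% interval -0.61 to 0.37). Its processed signal, which ran from 28800 to 35400 units, spanned only 1.23-fold over the arrays although their 75th percentiles spanned 1.83-fold. No array was marked as saturated on this probe. Its sign turned under quantile normalization (0.15), median centring (0.06) and in the authors' deposited value table (0.11).

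The second Hspa8 probe (A_55_P2069721) read 6.13, 5.84 and 6.29 in WT and 6.28, 6.45 and 6.49 in KO, with 1 KO array just under the highest WT array. Its log2 fold change was 0.32 ± 0.16 (adjusted p = 0.436 by limma). The third (A_52_P12877) read 4.05, 3.78 and 4.29 in WT and 4.34, 4.48 and 4.52 in KO. These groups did not overlap, though the lowest KO array was close to WT replicate 3, and the log2 fold change was 0.41 ± 0.16, a 1.33-fold difference with an unadjusted p of 0.0414 and an adjusted p of 0.391 by limma. These last 2 probes correlated at 0.992 over the 6 arrays and spanned 2.29-fold and 2.48-fold in processed signal. Over the 18 other settings tried for each, the second stayed at 0.18 to 0.55 and the third at 0.26 to 0.59. The 3 Hspa8 probes thus disagreed in sign, and the one that stood apart was the brightest, whose signal varied least.

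The constitutive HSP110 members exchange nucleotides on HSP70 as Hsph1 does. Hspa4, the founding member of that group, was read by 3 probes, whose log2 fold changes were 0.28 ± 0.22, 0.19 ± 0.16 and 0.29 ± 0.19 (adjusted p = 0.594, 0.612 and 0.527 by limma). The brightest read 3.24, 3.47 and 4.06 in WT and 3.78, 3.98 and 3.83 in KO. On all 3 probes the groups overlapped. Hspa4l, a close relative of Hspa4, read 2.75, 2.80 and 2.60 in WT and 2.87, 2.88 and 3.03 in KO. Each KO array was above each WT array, by a log2 fold change of 0.21 ± 0.13 (95% interval -0.09 to 0.51, adjusted p = 0.502 by limma). The Hspa4l interval ended below the lower bounds of both Hsph1 probes, 1.08 and 1.09.

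Hspa9, the mitochondrial HSP70 that helps to pull proteins through the inner membrane, read 3.16, 3.53 and 3.49 in WT and 3.32, 3.63 and 3.50 in KO. Its groups overlapped, with a log2 fold change of 0.09 ± 0.16 (adjusted p = 0.812 by limma). Hspa13 is a microsomal member without the substrate-binding domain of other HSP70 proteins. Its brighter probe read 2.43, 2.55 and 2.61 in WT and 2.33, 2.59 and 2.32 in KO, and its dimmer probe lay between -2.33 and -1.67 over all 6 arrays. Both overlapped between the groups, at -0.12 ± 0.13 and -0.16 ± 0.20 (adjusted p = 0.711 and 0.727 by limma), and both turned sign under median centring, to 0.06 and 0.02.

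Hspa1l, the testis form that neighbours Hspa1a, read -2.69, -2.50 and -3.09 in WT and -2.93, -2.90 and -3.00 in KO. It overlapped between the groups at a log2 fold change of -0.18 ± 0.18 (95% interval -0.60 to 0.23, adjusted p = 0.654 by limma). Its probe was dim, at 22.6 to 55.5 units of processed signal in WT. Hspa2, which spermatocytes need to complete meiosis, read 1.66, 1.63 and 1.75 in WT and 1.93, 1.89 and 1.86 in KO. The groups did not overlap, and KO was higher by a log2 fold change of 0.21 ± 0.11 (adjusted p = 0.462 by limma).

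**Figure D2:**
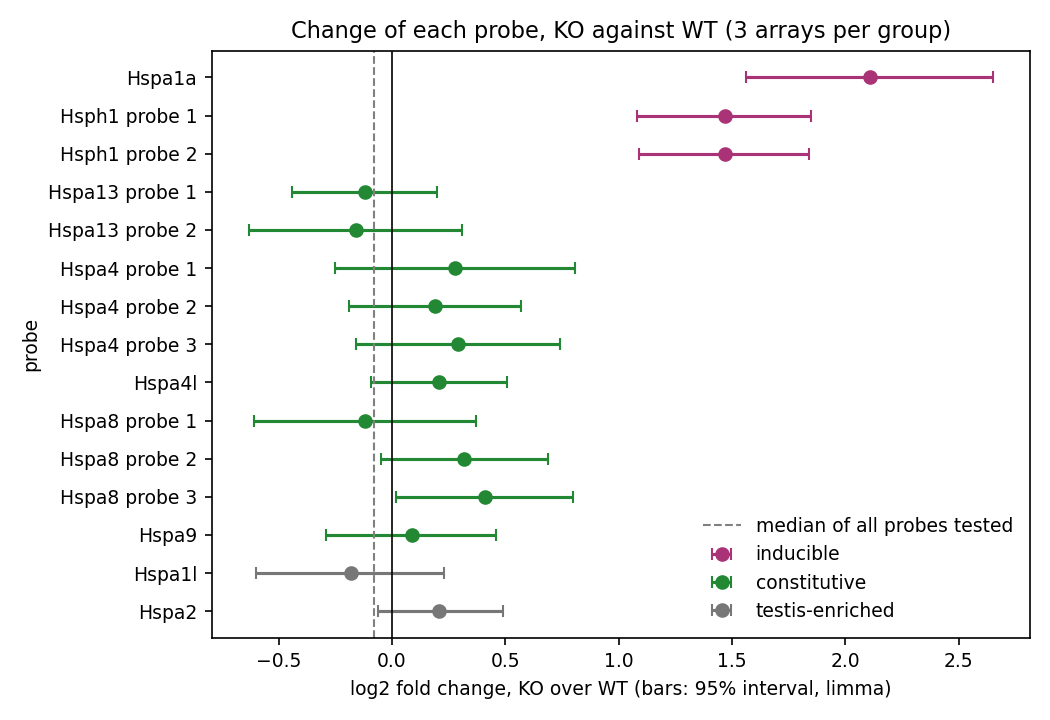
Log2 fold change of KO over WT (x axis) with its 95% interval from limma for each of the 15 probes (y axis), coloured by class, and the median of all probes tested as a dashed line at -0.08. The 3 inducible probes, at 1.47 to 2.11, have intervals that start above 1, and the other 12 lie between -0.18 and 0.41.

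By limma no probe on the array was called at an adjusted p under 0.05 (0 of 36739, or 0%), where the lowest adjusted p was 0.118, and 4599 had an unadjusted p under 0.05. The members were chosen with earlier results of these data known, so their counts are a description. An unadjusted p under 0.05 with KO higher was reached by 4 of the 15 member probes, against 3.64% of all probes tested, and with KO lower by 0, against 8.88%. KO was above WT without overlap on 6 of the 15, against 6.82% of all probes, and below WT without overlap on 0, against 13.5%. A log2 fold change of 1 or more was reached by 3 of the 15, all of them inducible, against 0.34% of all probes. Above 0 lay 11 of the 15, against 38.3% of all probes, and below 0 lay 4, against 61.7%; the median of all probes was -0.08. Median centring moved that median to 0.10, and then all 10 constitutive probes lay above 0, against 63.5% of all probes. The share of all probes above 0 thus depends on the scaling. Among the constitutive probes, the brightest of Hspa8 and both of Hspa13 turned sign under median centring. The other constitutive probes lay above 0 in the reported setting as well. Of all probes at an unadjusted p under 0.05, 70.9% were lower in KO, against 25.3% under median centring, 42.3% under quantile normalization and 46.9% in the authors' deposited value table.

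The inducible class had a median log2 fold change of 1.47 (1.47 to 2.11), with 3 of 3 probes above 0, all without overlap. The constitutive class had a median of 0.20 (-0.16 to 0.41), with 7 of 10 above 0 and 2 without overlap, and the median of all probes tested was -0.08. No test was made of the classes, since the probes of a class share genes and arrays. The classes were also chosen with earlier results of these data known, so their medians are a description. Taken array by array, as the median distance of the class from its probes' WT means, the inducible probes stood at -0.17, 0.25 and -0.07 in WT and at 1.44, 1.33 and 1.67 in KO. The constitutive probes stood at -0.15, -0.03 and 0.17 in WT and at 0.07, 0.25 and 0.23 in KO. The inducible class exceeded the constitutive class by 1.36, 1.08 and 1.44 in the KO arrays and by no more than 0.28 in the WT arrays.

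**Figure D3:**
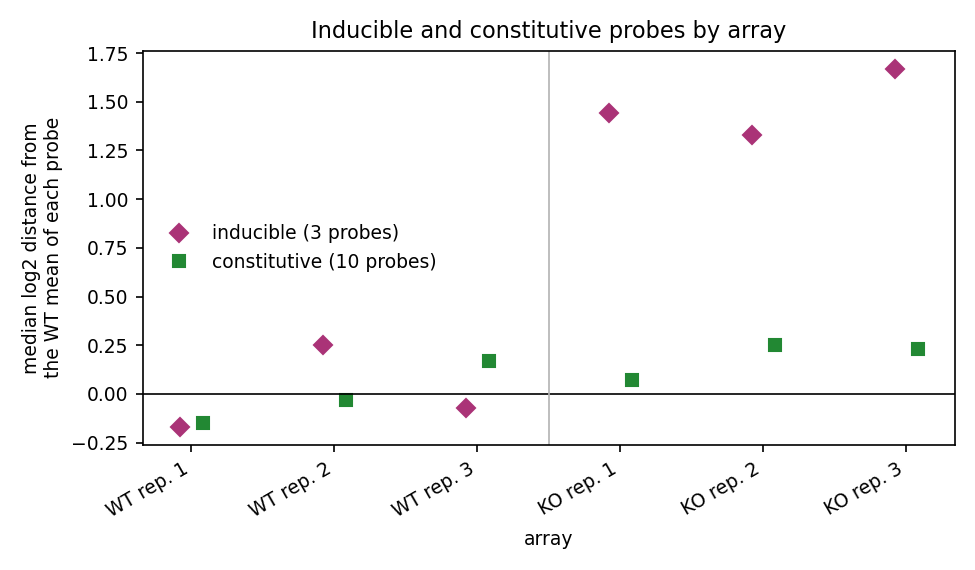
Median log2 distance of the 3 inducible probes (diamonds) and the 10 constitutive probes (squares) from each probe's WT mean (y axis), for each of the 6 arrays (x axis). In the KO arrays the diamonds lie at 1.33 to 1.67 and the squares at 0.07 to 0.25; in the WT arrays both lie between -0.17 and 0.25.

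The difference between the 2 class medians, 1.27, held its sign in each of 19 other settings, at 1.19 to 1.70. These settings refit the same arrays and are not independent of each other. The Hspa1a and the 2 Hsph1 probes were called by limma in 4 of those settings, namely normexp correction, the authors' deposited value table, a filter asking for all 6 arrays above background, and a variance trend with robust fitting. Between 11 and 30 probes in all were called there. In the other 15 settings no member was called, and the highest adjusted p of Hspa1a was 0.468. No other member was called in any setting.

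**Figure D4:**
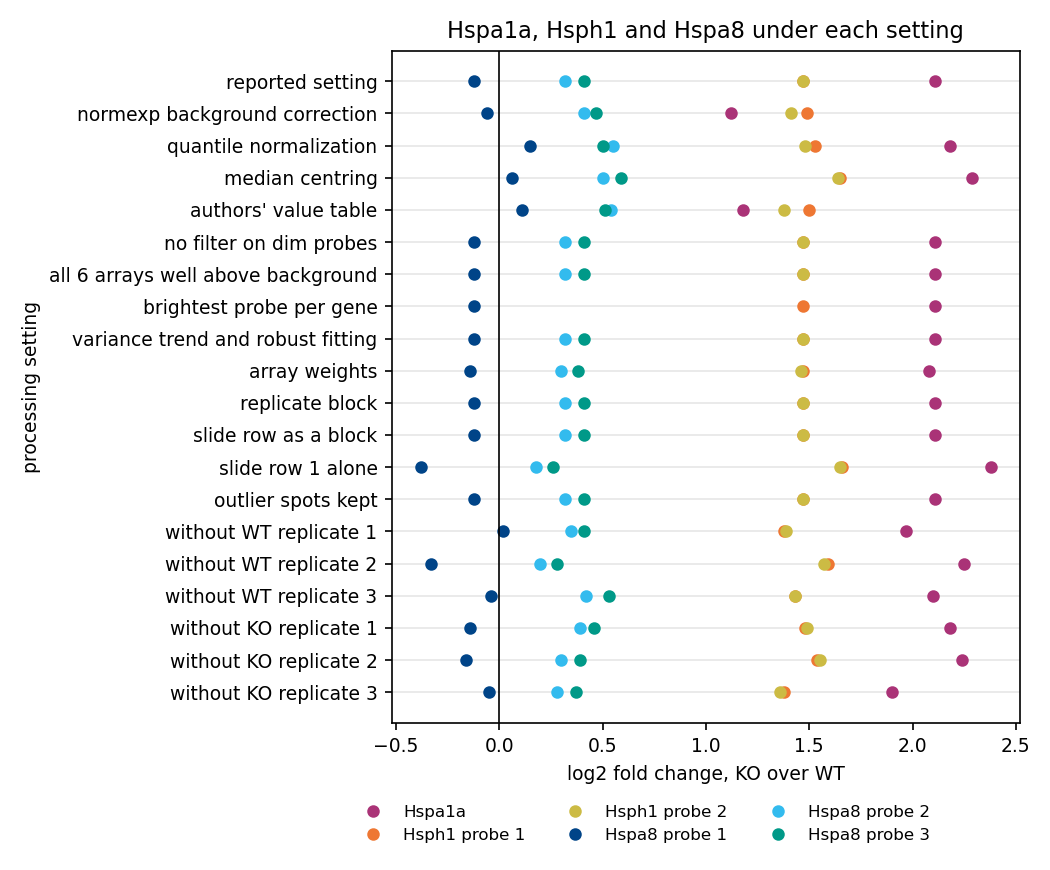
Log2 fold change of KO over WT (x axis) of the probes of Hspa1a, Hsph1 and Hspa8 under the reported setting and 19 others (y axis). Hspa1a moves between 1.12 and 2.38 and the Hsph1 probes stay between 1.36 and 1.66, while the brightest Hspa8 probe crosses 0.

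The partners of HSP70 were taken from lists chosen with earlier results of these data known, so their counts are a description. Each gene was read by its brightest probe, and none was called at an adjusted p under 0.05 by limma. For such probes of all 16461 named genes, 4.96% had an unadjusted p under 0.05 with KO higher and 7.36% with KO lower, and the median log2 fold change was -0.03. Of 12 J-domain partners of types A and B tested, 4 had an unadjusted p under 0.05 with KO higher and 0 with KO lower, at a median of 0.14. KO lay above WT without overlap on 5 of the 12, against 9.75% of named genes, and above 0 on 9, against 45%. Dnajb1, the partner of inducible HSP70 in dissolving aggregates, read 3.97, 4.18 and 4.70 in WT and 5.34, 5.61 and 5.61 in KO, and its log2 fold change was 1.23 ± 0.21 (adjusted p = 0.257 by limma). Dnaja1 read 3.88, 4.13 and 4.03 in WT and 5.22, 5.06 and 5.36 in KO. Neither overlapped between the groups. Its log2 fold change was 1.20 ± 0.14 (adjusted p = 0.151), and its second probe gave 0.80 ± 0.14. Dnaja4 and Dnajb4, other stress-responsive J-domain proteins, stood at 0.68 ± 0.13 and 0.61 ± 0.18 (adjusted p = 0.257 and 0.324), also without overlap. Dnaja1 was called in 3 and Dnajb1 in 2 of the other settings.

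The 10 nucleotide exchange factors outside the HSP110 family had a median of 0.03. Of the 10, 0 had an unadjusted p under 0.05 with KO lower, against 7.36% of named genes. With KO higher 1 did, against 4.96%. That gene was Bag3, a stress-induced factor that hands HSP70 clients to autophagy. It read 2.15, 2.92 and 2.66 in WT and 3.51, 3.60 and 3.57 in KO, without overlap, and its log2 fold change was 0.98 ± 0.21 (adjusted p = 0.257 by limma). The next by p were Bag2 at 0.31 ± 0.18, Grpel2 at -0.27 ± 0.19 and Bag1 at -0.19 ± 0.14 (adjusted p = 0.498, 0.555 and 0.565), and a second Grpel2 probe had the other sign (0.25 ± 0.12).

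The 10 adaptors and ubiquitin partners had a median of -0.01. Of the 10, 2 had an unadjusted p under 0.05 with KO higher, against 4.96% of named genes. With KO lower 0 did, against 7.36%. Stip1, which passes clients from HSP70 to HSP90, read 1.92, 1.90 and 2.06 in WT and 2.29, 2.34 and 2.37 in KO. St13, which holds HSP70 in its ADP state, read 1.87, 2.04 and 2.10 in WT and 2.33, 2.23 and 2.37 in KO. Both were without overlap, at 0.37 ± 0.12 and 0.31 ± 0.13 (adjusted p = 0.340 and 0.394 by limma). Tomm34 and Tomm70a, which receive HSP70 clients bound for mitochondria, followed at 0.23 ± 0.12 and 0.21 ± 0.14 (adjusted p = 0.459 and 0.538).

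The 5 HSP70 relatives outside the listed members had 0 genes at an unadjusted p under 0.05, 2 above 0 and a median of -0.04. Hspa5, the HSP70 of the endoplasmic reticulum, and Hyou1, the HSP110 relative of that compartment, were the lowest of them at -0.32 ± 0.19 and -0.69 ± 0.31 (adjusted p = 0.495 and 0.412 by limma). Without WT replicate 3 these values were -0.14 and -0.34, and Hspa5 stood at -0.07 under quantile normalization. Hspa14 and Hspa12a gave 0.17 ± 0.15 and 0.18 ± 0.21 (adjusted p = 0.621 and 0.705). The heat shock factors likewise had 0 of 3 tested at an unadjusted p under 0.05, with Hsf1 at 0.05 ± 0.13, Hsf2 at -0.10 ± 0.19 and Hsf4 at 0.20 ± 0.14 (adjusted p = 0.883, 0.837 and 0.556). These are transcript levels and do not report the activity of the factors.

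The 18 other heat shock response genes tested share Dnaja1, Dnajb1, Bag3, Stip1 and Fkbp4 with the lists above and had a median of 0.14. Of the 18, 6 had an unadjusted p under 0.05 with KO higher, against 4.96% of named genes. With KO lower 0 did, against 7.36%. The 6 were Dnaja1, Chordc1, Dnajb1, Bag3, Cacybp and Stip1, of which only Chordc1 and Cacybp were not in the lists above. Chordc1, an HSP90 partner, read 0.90, 1.09 and 1.15 in WT and 1.97, 1.81 and 2.04 in KO, without overlap, and its log2 fold change was 0.89 ± 0.14 (adjusted p = 0.221 by limma); it was called in 3 of the other settings. Without overlap, KO lay above WT on 7 of the 18, against 9.75% of named genes, and below WT on 3, against 12.7%. In the promoter windows of these partners, Chordc1 held 5 two-unit and 3 three-unit matches. The three-unit matches overlap, with most of the two-unit ones, in 1 stretch from 4 bases before the start to base 18 after it. Bag3 held 1 two-unit match, at bases 42 to 49 after the start. Dnaja4 held 2 and Dnajb4 held 1, each in 1 of its 2 windows, and Dnaja1 held 1 in 1 of its 3 windows. Dnajb1, Stip1 and Cacybp held none. Counted window by window, 15.1% of all promoters held a two-unit match and 0.603% a three-unit match.

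**Figure D5:**
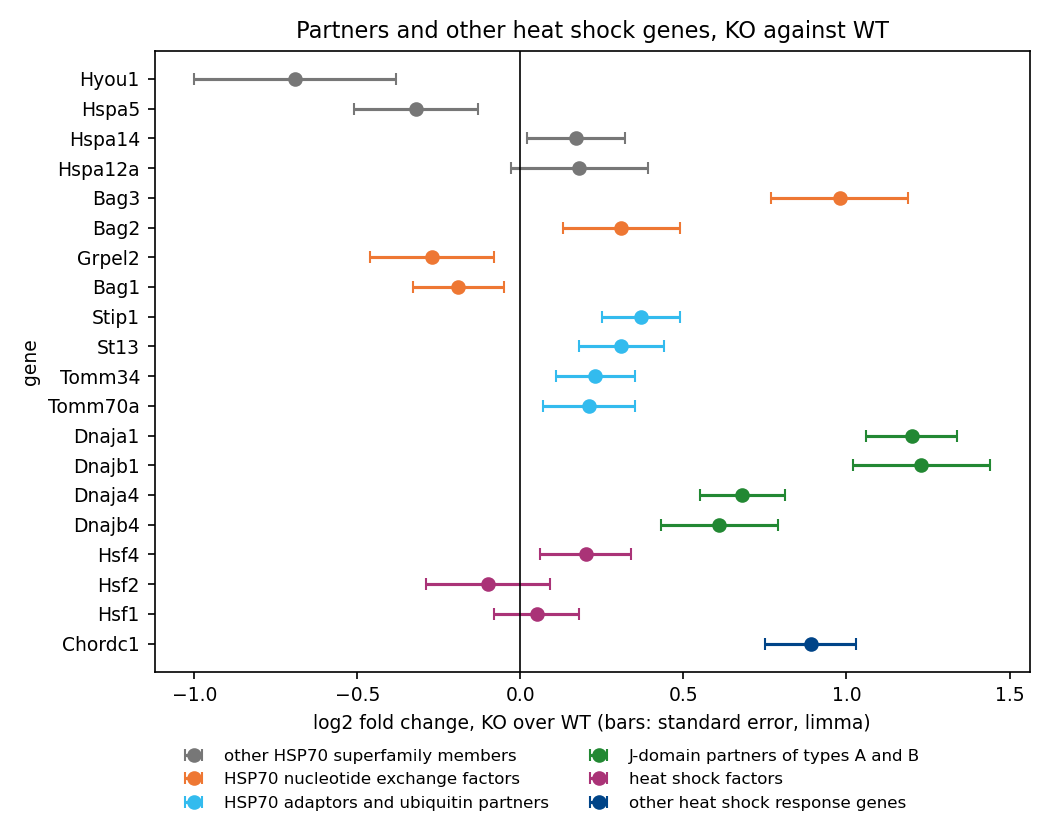
Log2 fold change of KO over WT (x axis) with its standard error from limma (n = 3 arrays per group) for the named partners and other heat shock genes (y axis), coloured by list. Dnajb1, Dnaja1, Bag3 and Chordc1 lie between 0.89 and 1.23, the heat shock factors lie between -0.10 and 0.20, and Hyou1 and Hspa5 lie below 0.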

How the data were processed

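RNA of 6 pituitaries was labelled with Cy3 and hybridised to one-colour Agilent arrays, per the labels. Agilent Feature Extraction 11.0.1.1 wrote the deposited spot intensity values after subtracting background and detrending, with no scaling between arrays, per the file headers. The authors' deposited value table gives log2 values for 26625 probes, including 14 of the 15 member probes (not that of Hspa1l). Column by column it correlated with the array's log2 median brightness at 0.997 to 1, with column medians of 8.25 to 8.26. The normalization and filter behind it are not stated in what was used here; per the submitters' processing notes, limma (version not given) was used.

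Outlier spots were dropped, spots of a probe averaged as log2, and each array's 75th percentile over non-control spots subtracted. A probe entered the fit if it was well above background on 3 or more of the arrays, which kept 36739. KO was set against WT by a two-sided lmFit and eBayes in limma 3.58.1 (R 4.3.3, data.table, version 1.17.8), p-values were adjusted over all probes by Benjamini-Hochberg, and calls needed an adjusted p under 0.05. Arrays are separate animals, per the labels; 3 arrays per group limit the precision. The RefSeq annotation of GRCm38.p6 gave symbols (27656 probes, 20972 symbols), whereas the file headers name mm9.

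The members, their classes and the lists were chosen with earlier results of these data known. Named genes were all members, up to 4 of each list with the smallest p, and the 5 most like Hspa1a and Hsph1. Promoter matches were sought on both strands, from 250 bases before the start to 50 from it on. The steps were tested on simulated data. The alternatives were normexp on median brightness (offset 50), quantile normalization, median centring, the authors' values, no filter or one asking for all arrays, only the brightest probe per gene, robust fitting on a variance trend, weighted arrays, the replicate number or the slide row as a block, slide row 1 alone, outlier spots kept, and leaving out each array. Deviations of same-numbered arrays correlated at 0.14, -0.17 and -0.10, so the numbers were not treated as pairs.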

Additional observations from a re-analysis of the deposited data

How the results depend on the processing

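No probe was called in the reported fit, and calls elsewhere numbered 28 with normexp, 3 with median centring, 29 in the authors' deposited value table, 11 with the filter asking for all 6 arrays and 30 with robust fitting on a variance trend. In these, median centring excepted, 3 member probes were called (Hspa1a and both of Hsph1). The difference between the inducible and constitutive medians, 1.27, became 1.7 with the brightest probe per gene and 1.52 in slide row 1 alone, and 1.20 to 1.42 on leaving out an array. Signs turned for Hspa12a under normexp (-0.09), for Hspa8's brightest probe under quantile normalization (0.15), median centring (0.06) and the authors' table (0.11), and under median centring for both Hspa13 probes (0.02 and 0.06) and Hsf2 (0.08). Leaving out 1 array also turned signs: Hspa9 ran from -0.03 (without WT replicate 1) to 0.17, the brightest Hspa8 probe from -0.33 (without WT replicate 2) to 0.02, Hsf2 from -0.26 to 0.07 and Hsf1 from 0 to 0.11. Probes at an unadjusted p under 0.05 numbered 2638 without KO replicate 3, 2876 without KO replicate 2 and 7010 without WT replicate 2, against 4599 with all arrays. With the replicate number as a block, 0 probes were called, Hspa1a stayed at 2.11 with an adjusted p of 0.452 by limma, and the class difference was 1.27. The causes of these changes were not tested. The Hspa1a probe lies near background in WT, and its log2 fold change ran from 1.12 to 2.38 over the settings.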
